A study of Mus musculus with 24 samples.

Results

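BXH14 is a recombinant inbred (RI) strain of mice, derived by repeated brother-sister mating from a cross of C57BL/6J (B6) and C3H/HeJ (C3), and its lungs were set here against those of the other RI strains of the same cross. Its 2 arrays were found by their titles, BXH14-1 and BXH14-2, among the 24 arrays of the series. The other groups had 2 arrays each: 8 further RI strains (BXH2, BXH4, BXH6, BXH7, BXH8, BXH9, BXH10 and BXH19, together 16 arrays), the BXHF1 hybrid of both progenitors, C3 and B6. All mice were untreated males aged 8 weeks from the Jackson Laboratory, and no group carried an engineered allele. Whether a strain's 2 samples were taken from different animals is not stated in the labels, and the p-values therefore reflect the spread among the samples given, part or all of which may be technical.

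In an RI strain most loci are fixed for the allele of either B6 or C3, so a transcript controlled by its own locus is commonly found near the level of one progenitor. A level outside both progenitors is called transgressive. The lung is lined by an epithelium that secretes surfactant and takes up sodium and fluid, and it holds many antigen-presenting cells, which display peptides on major histocompatibility complex (MHC) class I and class II molecules encoded by the H2 genes of mouse chromosome 17.

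Values are deposited signals, which are linear brightness values per probe set (a group of oligonucleotides against a transcript). For each of 8280 genes the brightest probe set was tested as log2(signal + 16) with limma, and a gene was called when its adjusted p (Benjamini-Hochberg) was below 0.05. The median signal was 239 on BXH14 replicate 1 and 257 on BXH14 replicate 2, within the range of 239 to 269.6 over all arrays. Across tested genes, which are not independent replicates, the 2 BXH14 arrays correlated with r = 0.959, where the 2 arrays of a strain ranged between 0.949 and 0.975, and each BXH14 array correlated between 0.917 and 0.969 with arrays of other strains. The lung label was checked by 7 tested epithelial markers, among them surfactant protein C and the club cell protein Scgb1a1: their mean level was 13.17 and 13.30 on the log2 scale in BXH14, against 13.11 to 13.61 in the other RI strains, and 0 of 7 were called by limma (0 at an unadjusted p below 0.05). In whole lung, fewer cells of a type and less RNA per cell cannot be told apart.

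The test set BXH14 against the mean of the other 8 RI strain means. Its p-values rest on the spread within strains and do not measure the spread among those 8 strains. A gene can therefore be called where BXH14 shares its level with other RI strains. BXH14 lungs differed from that mean in 102 of 8280 genes (1.23%). Of these, 43 (0.519% of all tested genes) were higher in BXH14 and 59 (0.713%) were lower, and 1079 genes had an unadjusted p below 0.05. The same contrast for each of the other RI strains called between 97 genes (BXH2, 1.17%) and 632 genes (BXH4, 7.63%). Absolute log2 differences of at least 1 were found for 21 of the 102 genes. For 31 of them both BXH14 arrays lay beyond all 16 other RI arrays, as did 166 of all tested genes (2%). The strain mean of BXH14 was the highest of the 9 RI strains for 25 of the 102 genes. It was the lowest for 40, as it was for 12.4% of all tested genes. The share with the highest mean was not counted over all tested genes. The median difference of all tested genes was -0.02.

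Called genes were sorted by the mean levels of the progenitors, with a tolerance of 0.5 on the log2 scale. BXH14 was outside both progenitors for 35 genes, above them for 9 and below them for 26. It was at the C3 level for 35 genes and at the B6 level for 24, near both for 6, and in no such class for 2. C3 and B6 themselves differed (limma adjusted p below 0.05) for 20 of the 35 genes and for 16 of the 24. For the rest of these genes the level rests on the tolerance alone. By the same tolerance, 242 of all tested genes (2.92%) were outside both progenitors, 5.71% were at the C3 level, 5.18% at the B6 level, 85.7% near both and 0.531% in no such class. Of the 35 called genes outside, 11 also passed limma's test against each progenitor, 17 passed against exactly 1 and 7 against neither. For 8 of the 35 no other RI strain mean came within 0.5 of BXH14. Of the called genes at the level of a single progenitor, which other strains of the cross can share, 0 were alone in this way. The count of such genes over all tested genes was not made. The calls rested on both arrays: without BXH14 replicate 1, 20 genes were called and 83 of the 102 were lost, and without BXH14 replicate 2, 88 genes were called and 54 of the 102 were lost. In such a fit the lone array is assumed to vary like those of the other strains. Called under every alternative in which they were tested were 15 genes: Scnn1g, H2-D1, H2-K1, H2-Eb1, Tmem87a, Trim34a, Rab6b, Rpgrip1, Alad, Clba1, 2610005L07Rik, Gprc5b, Baiap2l1, Zfp386 and Wdr82.

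**Figure D1:**
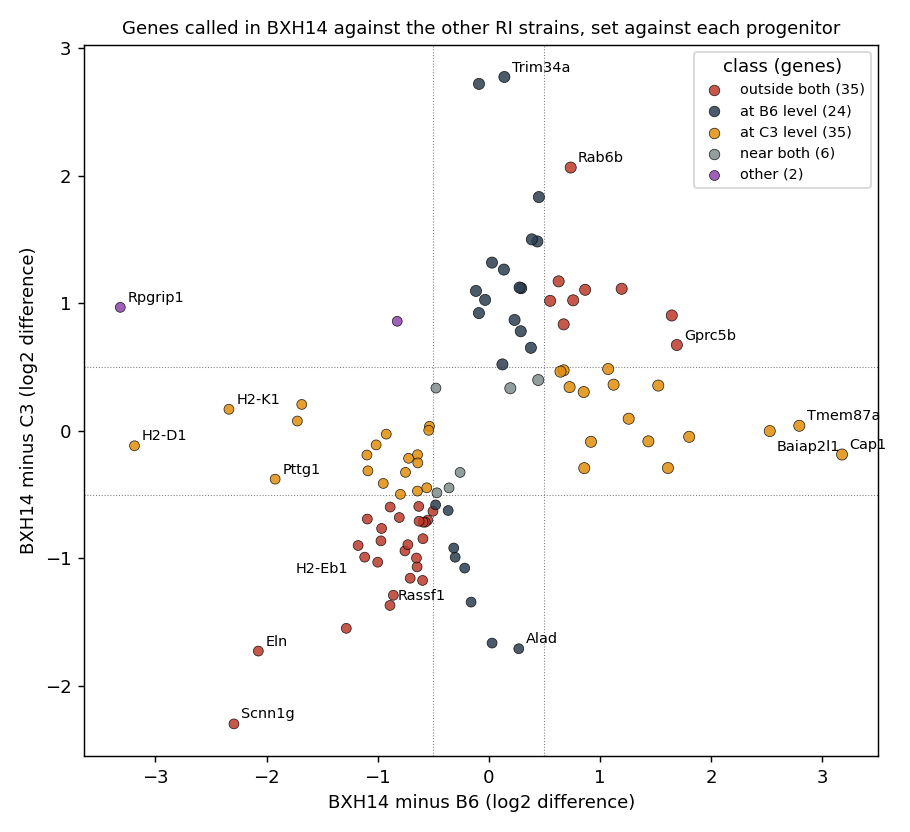
Each point is one of the 102 genes called in BXH14 against the other RI strains, with the log2 difference of BXH14 minus B6 on the horizontal axis and of BXH14 minus C3 on the vertical axis; dotted lines mark the tolerance of 0.5. Scnn1g lies lowest on the left below both progenitors, H2-D1 and H2-K1 lie near 0 against C3 and far below B6, and Trim34a lies near 0 against B6 and above C3.

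Scnn1g had the lowest p of all tested genes. It encodes the gamma subunit of the epithelial sodium channel, which sits in the apical membrane of airway and alveolar epithelium and clears sodium and fluid from the air space. Its signal was 317 and 292 on the BXH14 arrays. The 16 other RI arrays had a lowest value of 1195, a median of 1394 and a highest value of 1668, the C3 arrays had 1554 and 1567, and the B6 arrays had 1430 and 1688. Both BXH14 arrays were thus far below every other array of the series, and the progenitors stood within the range of the other RI strains or just above it. The log2 difference of BXH14 minus the other RI strains was -2.17 (SE 0.09, limma adjusted p = 3.39e-11). Against C3 it was -2.30 (SE 0.12, limma adjusted p = 1.9e-09) and against B6 -2.29 (SE 0.12, limma adjusted p = 1.98e-09). Over the 42 alternatives it ranged between -2.23 and -2.02 and was called in each. A single probe set measured this gene, and whether the oligonucleotides match the BXH14 transcript was not tested.

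The other genes of the channel and its surroundings did not share this level. Scnn1b, which encodes the beta subunit and lies 2 annotated genes away on chromosome 7, had signals of 1083 and 1090 in BXH14, against 726 to 1222 with a median of 1006 in the other RI strains, a log2 difference of 0.15 (SE 0.11, limma adjusted p = 0.611). Scnn1a, the alpha subunit, had 2807 and 2444 in BXH14 and a median of 2486 in the other RI strains, a difference of 0.01 (SE 0.12, limma adjusted p = 0.984) whose sign turned in some alternatives. Neither differed beyond the spread between samples. Of 14 tested genes of a list for sodium channel and fluid transport, written after values of these data had been seen, Scnn1g was the 1 called, and the list's median difference was 0.02. Among those not called were the channel's ubiquitin ligase Nedd4l (0.41) and the water channel Aqp5 (0.19). Within 60 annotated genes on either side, none of the 22 other tested genes was called by limma, with 3 at an unadjusted p below 0.05. The nearest to the threshold was Tmem159, with signals of 490 and 514 in BXH14 and a median of 766 in the other RI strains (difference -0.45, SE 0.13, limma adjusted p = 0.124). Thumpd1 had 0.33 (SE 0.11, limma adjusted p = 0.182).

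**Figure D2:**
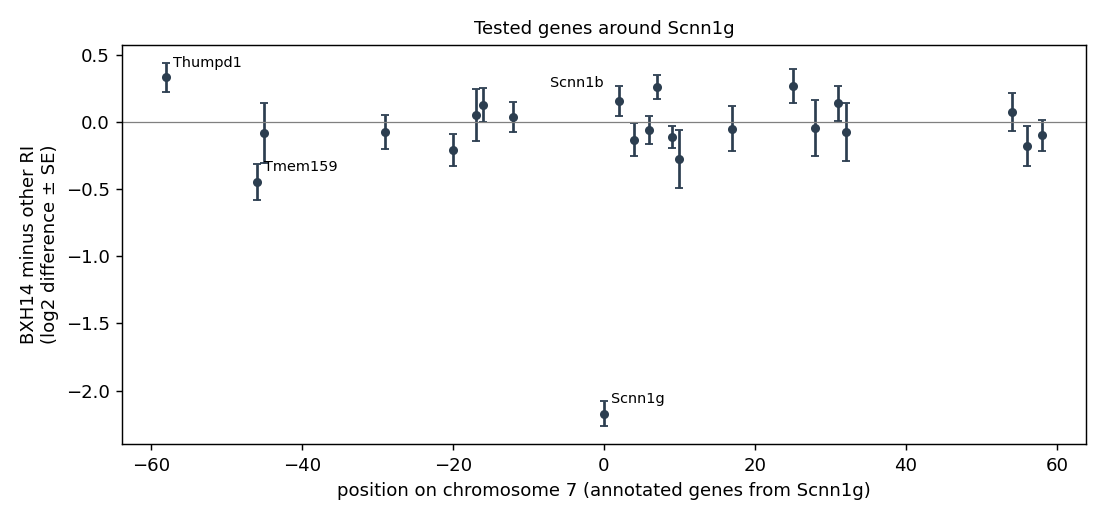
Log2 difference of BXH14 minus the other RI strains (points, bars are the SE of the limma fit) for the tested genes within 60 annotated genes of Scnn1g on chromosome 7, by their order. Scnn1g is at -2.17, while its neighbours lie between -0.45 and 0.33.

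The 250 bases before a RefSeq transcript start of Scnn1g (assembly GRCm38.p6, chr7:121734229-121734478, plus strand) are shown because this gene had the largest distance to both progenitors among the genes outside them. The last 59 bases of this window lie inside the annotated span of the gene, which begins upstream of that transcript start. The letters are those of the B6 reference, since no sequence of BXH14 was analysed here. Capitals mark the GC box GGGCGG, a motif bound by Sp family factors, which was searched on both strands and is held by 32.7% of 32851 RefSeq promoter windows of that length.
Scnn1g: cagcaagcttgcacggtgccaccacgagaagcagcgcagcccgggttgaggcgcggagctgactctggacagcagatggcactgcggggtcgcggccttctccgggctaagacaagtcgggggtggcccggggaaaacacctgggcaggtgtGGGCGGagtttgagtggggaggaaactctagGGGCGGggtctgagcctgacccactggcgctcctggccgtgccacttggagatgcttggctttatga

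Other genes below both progenitors were of varied function. 2610005L07Rik and 6820431F20Rik, with no role given here, are near each other on chromosome 8. 2610005L07Rik had signals of 1261 and 1417 in BXH14, against 1869 to 4107 with a median of 2503 in the other RI strains, 3353 and 3235 in C3 and 2342 and 2538 in B6. Its log2 difference was -0.95 (SE 0.12, limma adjusted p = 2.23e-04), and its second probe set gave -0.96. 6820431F20Rik had 273 and 261 in BXH14, against 385 to 1225 with a median of 488 in the other RI strains, 923 and 713 in C3 and 596 and 757 in B6. Its difference was -1.12 (SE 0.18, limma adjusted p = 0.00249). For both genes the BXH14 arrays lay below every other array named here, and both passed against each progenitor. Whether probe sets of these neighbours detect shared transcripts was not tested.

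Slc25a25, a mitochondrial carrier that exchanges ATP-magnesium for phosphate, had signals of 154 and 221 in BXH14, against 287 to 463 with a median of 375 in the other RI strains, 354 and 344 in C3 and 353 and 403 in B6 (difference -0.93, SE 0.15, limma adjusted p = 0.00266). All BXH14 values were below all others. Eln, which encodes the elastic fibre protein elastin, had 1683 and 2124 in BXH14 and a lowest, median and highest value of 2117, 3616 and 7068 in the other RI strains, with 5607 and 7079 in C3 and 7779 and 8251 in B6. The BXH14 arrays overlapped the lowest of the other RI arrays. Both B6 arrays and 1 C3 array lay above the other RI range, and the other C3 array lay within it. The difference was -0.91 (SE 0.21, limma adjusted p = 0.0388) against the other RI strains, -1.73 against C3 (SE 0.28, limma adjusted p = 0.00246) and -2.07 against B6 (SE 0.28, limma adjusted p = 3.06e-04). A second Eln probe set gave -1.22. Apart from BXH7 (6512), the other RI strains also had Eln means below both progenitors. These were 2539 to 4437, against means of 6343 in C3 and 8015 in B6. An Eln mean below both progenitors was thus not particular to BXH14.

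Rassf1, a Ras-association scaffold protein, had signals of 140 and 116 in BXH14, against 117 to 868 with a median of 455 in the other RI strains, 416 and 302 in C3 and 338 and 183 in B6. BXH14 had the lowest strain mean, with BXH7 (195) next, and the difference was -1.60 (SE 0.30, limma adjusted p = 0.00841). Oxtr, the oxytocin receptor, had 91.3 and 76.5 in BXH14, below the 115 to 374 of the other RI strains, the 182 and 193 of C3 and the 136 and 245 of B6 (difference -1.12, SE 0.25, limma adjusted p = 0.0332). For neither gene did the difference to a progenitor pass. Apc2, a relative of the Wnt regulator Apc, had 130.5 and 61.8 in BXH14, a pair more unequal than that of Oxtr, against 130.4 to 328.5 in the other RI strains (difference -1.14, SE 0.24, limma adjusted p = 0.0212). Mmp3, a matrix metalloproteinase, had a difference of -0.70 (SE 0.12, limma adjusted p = 0.00572) and passed against both progenitors, but its BXH14 values of 196 and 236 were within the range of 178 to 636 of the other RI strains.

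Several of these calls were lost when 1 BXH14 array was left out. Without replicate 1, limma's adjusted p was 0.0786 for 6820431F20Rik, 0.258 for Slc25a25, 0.708 for Eln, 0.129 for Rassf1, 0.262 for Oxtr and 0.291 for Mmp3. Without replicate 2 it was 0.0506 for 6820431F20Rik, 0.0868 for Eln, 0.104 for Rassf1, 0.178 for Oxtr and 0.289 (limma adjusted p) for Apc2. Scnn1g and 2610005L07Rik were called without either array, at -2.23 and -0.87 without replicate 1 and at -2.12 and -1.04 without replicate 2.

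Of the 9 called genes above both progenitors, Rab6b had the largest difference. Rab6b is a small GTPase of transport between the Golgi and the endoplasmic reticulum. It had signals of 631 and 562 in BXH14, against 81.3 to 455 with a median of 161 in the other RI strains, 128 and 132 in C3 and 338 and 364 in B6. Both BXH14 arrays were above all others, with the strain means of BXH2 (455), BXH7 (414) and BXH4 (379) next and the rest at or below 186. The difference was 1.42 (SE 0.15, limma adjusted p = 2.06e-05) against the other RI strains, 2.07 (SE 0.20, limma adjusted p = 6.36e-06) against C3 and 0.74 (SE 0.20, limma adjusted p = 0.0647) against B6. Gprc5b, an orphan receptor of the G protein-coupled class C family, had 421.3 and 430.9 in BXH14, against 97.9 to 421.2 in the other RI strains, 275 and 248 in C3 and 124 and 118 in B6. Its strain means fell into 2 separate levels: BXH4, BXH6, BXH8 and BXH10 had 378 to 411, next to BXH14, and BXH2, BXH7, BXH9 and BXH19 had 108 to 134, next to B6. The level above C3 was therefore shared by 5 of the 9 RI strains. The Gprc5b difference was 0.91 (SE 0.13, limma adjusted p = 6.54e-04), and its second probe set gave 0.95.

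A pair of sulfation enzymes was among the genes higher in BXH14. Papss2, which makes the sulfate donor PAPS, had signals of 779 and 988 in BXH14, against 227 to 820 with a median of 444 in the other RI strains, 503 and 316 in C3 and 397 and 565 in B6 (difference 0.90, SE 0.20, limma adjusted p = 0.0260). Sult1d1, a cytosolic sulfotransferase, had 933 and 863 in BXH14, against 273 to 1064 with a median of 515 in the other RI strains, 429 and 519 in C3 and 241 and 314 in B6 (difference 0.89, SE 0.20, limma adjusted p = 0.0304). In each case the BXH14 values overlapped the highest of the other RI arrays. Further Papss2 probe sets differed in size, with 0.12, 0.29 (a dim probe set) and 1.37, and a second Sult1d1 probe set gave 1.07. The pair was named after its values were seen. Ddc, the decarboxylase that makes dopamine and serotonin, had 389 and 429 in BXH14, above the 156 to 341 of the other RI strains, the 165 and 197 of C3 and the 216 and 132 of B6, a difference of 0.85 (SE 0.16, limma adjusted p = 0.0110). Ctdspl, a small phosphatase, had 2740 and 2454 in BXH14, against 1068 to 2629 with a median of 1432 in the other RI strains (difference 0.79, SE 0.11, limma adjusted p = 6.18e-04). Ddc, Ctdspl and the FYVE-domain protein Zfyve21 (0.67, SE 0.12, limma adjusted p = 0.00648) passed against both progenitors. Naf1, an assembly factor of small nucleolar ribonucleoproteins (0.77), and Tmem47 (0.63) passed against C3 and not against B6. For Zfyve21, Naf1 and Tmem47, other RI strains also had means above both progenitors and within 0.5 of BXH14 (log2). These were BXH2, BXH8 and BXH10 for Zfyve21 (1619 to 1780) and BXH2, BXH6, BXH7 and BXH8 for Naf1 (524 to 584). For Tmem47 they were BXH2, BXH7 and BXH9 (556 to 688), and its second probe set gave 0.09. Without BXH14 replicate 1, limma's adjusted p was 0.150 for Papss2, 0.499 for Sult1d1, 0.143 for Ddc, 0.0703 for Ctdspl, 0.548 for Zfyve21, 0.293 for Naf1 and 0.671 for Tmem47. Without replicate 2 it was 0.202 for Papss2, 0.114 for Sult1d1, 0.116 for Ddc and 0.0694 (limma adjusted p) for Tmem47.

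**Figure D3:**
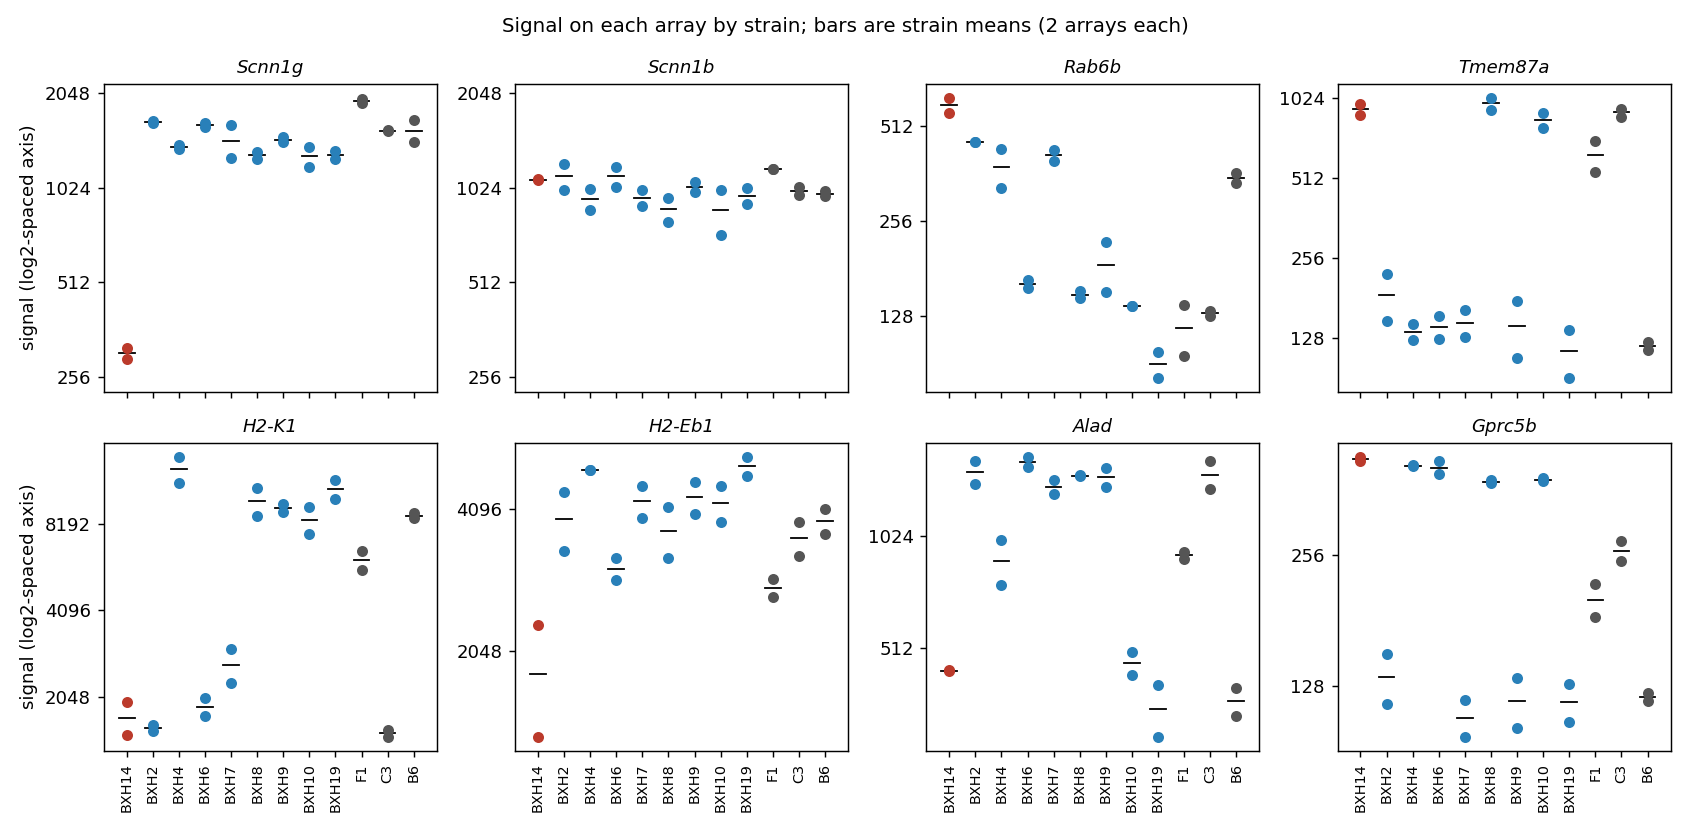
Signal of 8 genes on each array (points, 2 for each strain) with strain means as bars, on log2-spaced axes; BXH14 is at the left of each panel, then the other RI strains, F1, C3 and B6. BXH14 stands alone for Scnn1g (317 and 292), shares the low level of BXH2, BXH6, BXH7 and C3 for H2-K1, and shares the upper level of BXH4, BXH6, BXH8 and BXH10 for Gprc5b.

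On the probe sets tested, 5 of 13 genes of an MHC class I list were lower in BXH14, each at the C3 level. H2-D1 and H2-K1 encode the classical class I heavy chains, which present peptides to cytotoxic T cells. H2-K1 had signals of 1506 and 1956 in BXH14, against 1553 to 14053 with a median of 8869 in the other RI strains, 1565 and 1486 in C3 and 8594 and 8905 in B6. H2-D1 had 882 and 1028 in BXH14, against 883 to 13593 with a median of 8535 in the other RI strains, 1086 and 985 in C3 and 8824 and 8797 in B6. Both genes had 2 separate levels over the RI strains, with BXH2, BXH6 and BXH7 beside BXH14 at the low one (H2-K1 strain means of 1591, 1890 and 2648) and the other 5 strains at the high one (8459 to 12694). The differences were -1.67 for H2-K1 (SE 0.12, limma adjusted p = 2.11e-07) and -2.18 for H2-D1 (SE 0.16, limma adjusted p = 1.87e-07). H2-D1 differed from C3 by -0.12 (SE 0.21, limma adjusted p = 0.853) and H2-K1 by 0.17 (SE 0.17, limma adjusted p = 0.701). H2-M3, a nonclassical class I gene, had 419 and 495 in BXH14, against 401 to 1387 with a median of 932 in the other RI strains, and the same 4 strains were low (difference -0.85, SE 0.12, limma adjusted p = 6.82e-04).

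Probe sets for class I genes can bind alleles unequally, and those of H2-D1 did not move together. Of its 8 further probe sets 4 had the same sign as the one tested. One read 8.9 and 14.4 in BXH14, with means of 10.65 in C3 and 2540 in B6. Another read 3325 and 2745 in BXH14, with means of 3560 in C3 and 61.7 in B6. In each BXH14 was beside C3, whichever progenitor was high, so the direction for H2-D1 depends on the probe set: the second of these gave 3.06 on the log2 scale, and the mean of all its probe sets gave -0.65 (limma adjusted p = 0.00370), against -2.18 on the one tested. All 3 further probe sets of H2-K1 were lower in BXH14, by -1.29, -1.48 and -2.64 on the log2 scale.

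Genes that load class I molecules were also on the list. Tap1, a subunit of the peptide transporter, had 259 and 334 in BXH14, against 391.9 to 1081 with a median of 579 in the other RI strains, 364 and 432 in C3 and 557 and 609 in B6. Both BXH14 arrays were below every other RI array (difference -1.02, SE 0.15, limma adjusted p = 6.82e-04). B2m, the light chain of class I molecules, is encoded on chromosome 2, away from the H2 genes. It had 6409 and 6817 in BXH14, against 7519 to 14609 with a median of 10364 in the other RI strains, 8452 and 7334 in C3 and 10363 and 10233 in B6 (difference -0.63, SE 0.12, limma adjusted p = 0.00783). Here too the BXH14 values were below all 16 other RI arrays, but a second B2m probe set had 5821 and 6066 in BXH14, inside the 5093 to 9451 of the other RI strains (difference -0.18), and the call was lost with the mean of both probe sets (-0.41). Of 13 tested genes of the class I list 5 fell (H2-D1, H2-K1, Tap1, H2-M3 and B2m) and 0 rose, beside 0.713% of all tested genes that fell. Without H2-D1, 4 of 12 fell and 0 rose, with a median of -0.23. C3 and B6 did not differ for Tap1 (limma adjusted p = 0.291) or B2m (limma adjusted p = 0.389), so the C3 level of these 2 genes rests on the tolerance alone. The median of the whole list was -0.24, and members not called included Tap2 (-0.24), Tapbp (-0.17) and the immunoproteasome subunits Psmb8 (-0.43) and Psmb9 (-0.21). Without BXH14 replicate 1, limma's adjusted p was 0.102 for Tap1, 0.0958 for H2-M3 and 0.253 for B2m, and without replicate 2 it was 0.0642 (limma) for B2m.

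Of 9 tested MHC class II genes 4 were lower in BXH14 than in the other RI strains, and 3 of the 4 were more than 0.5 below both progenitors on the log2 scale. Class II molecules, made mainly by dendritic cells, B cells and macrophages, present peptides to helper T cells. H2-Eb1, a beta chain, had signals of 1348 and 2318 in BXH14, against 2890 to 5281 with a median of 4287 in the other RI strains, 3832 and 3253 in C3 and 4093 and 3627 in B6. H2-DMa, which helps to load peptides, had 356 and 403 in BXH14, against 442 to 972 with a median of 635 in the other RI strains, 627 and 624 in C3 and 594 and 531 in B6. For both genes BXH14 was below every array of the other RI strains and of both progenitors. H2-Ab1, another beta chain, had 936 and 1257 in BXH14, against 1245 to 2704 with a median of 1862 in the other RI strains, 2233 and 1727 in C3 and 1540 and 1755 in B6. H2-Aa, the alpha chain that pairs with it, had 3769 and 5301 in BXH14, against 4802 to 9164 with a median of 6921 in the other RI strains. On the probe sets tested, the groups overlapped for H2-Ab1 and H2-Aa by BXH14 replicate 2. They did not overlap on the 2 further H2-Ab1 probe sets. One read 362 and 506 in BXH14 against 611 to 1851 in the other RI strains (-1.35). The other read 534 and 769 against 808 to 3380 (-1.51). A further H2-Aa probe set overlapped, with 1769 and 2322 against 2116 to 5466 (-0.65).

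The differences were -1.21 for H2-Eb1 (SE 0.15, limma adjusted p = 2.00e-04), -0.74 for H2-DMa (SE 0.11, limma adjusted p = 6.54e-04), -0.79 for H2-Ab1 (SE 0.16, limma adjusted p = 0.0121) and -0.64 for H2-Aa (SE 0.13, limma adjusted p = 0.0143). H2-Eb1 passed against both progenitors, by -0.99 against C3 (SE 0.20, limma adjusted p = 0.0111) and by -1.12 against B6 (SE 0.20, limma adjusted p = 0.00482), while H2-DMa and H2-Ab1 passed against C3 alone and H2-Aa was within 0.5 of both. Of 9 tested class II genes 4 fell and 0 rose, beside 0.713% of all tested genes that fell. The strain mean of BXH14 was the lowest of 9 RI strains for 7 of them, as it was for 12.4% of all tested genes. This rank was not particular to class II genes. It was found for 8 of 14 alveolar type 2 genes, 4 of 7 lung epithelial markers, 4 of 11 club cell genes and 5 of 8 dendritic cell genes. For 9 B cell genes and 4 T cell genes it was found for 0. The median of the class II list was -0.64. Cd74, the invariant chain (-0.52, SE 0.13, limma adjusted p = 0.0539), and Ciita, the transcriptional coactivator of class II genes (-0.94, SE 0.24, limma adjusted p = 0.0579), missed the threshold, and passed it in 11 of 42 and 8 of 40 alternatives. BXH2, BXH6 and BXH7, which shared the low H2-K1 level, had H2-Eb1 means of 3891, 3058 and 4248, all above both BXH14 arrays. Without BXH14 replicate 1, H2-Eb1 was still called (-0.82, limma adjusted p = 0.0463), whereas limma's adjusted p was 0.0741 for H2-DMa, 0.597 for H2-Ab1 and 0.732 for H2-Aa.

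Of the 7 called H2 genes, 5 lay in a single run. Neighbouring called genes, separated by no more than 50 annotated genes, formed 10 runs that held 25 of the 102 genes. The longest had 6 genes, in the order H2-K1, H2-DMa, Tap1, H2-Ab1, H2-Aa and H2-Eb1 on chromosome 17, while H2-D1 and H2-M3 lay farther along it and in no run. On that chromosome 14 of 418 tested genes were called (3.35%), against 0.348% to 1.84% on the other autosomes. The next run held Slc35a5, Cd200 and Phldb2 on chromosome 16, all higher in BXH14 and at the B6 level, by 0.92, 0.54 and 0.71. BXH2, BXH9 and BXH10 shared the high level of these genes. For Cd200 the means of BXH9 (2383) and BXH10 (2280) exceeded that of BXH14 (2114). C3 and B6 did not differ for Cd200 (limma adjusted p = 0.0588) or Phldb2 (limma adjusted p = 0.652), so their B6 level rests on the tolerance alone. Limma's adjusted p without BXH14 replicate 1 was 0.441 for Slc35a5, 0.889 for Cd200 and 0.109 for Phldb2.

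The 250 bases before a RefSeq transcript start of 4 called H2 genes (GRCm38.p6, B6 reference letters, credited to RefSeq) are shown because these windows carry motifs known from MHC genes. The H2-K1 window lies wholly inside the annotated span of that gene, which begins upstream of the transcript start used, and the other 3 windows lie outside their genes. For H2-K1 (chr17:34000348-34000597, minus strand) and H2-D1 (chr17:35262844-35263093, plus strand), capitals mark GGGATTCCC, the kappaB site of the class I enhancer, and TTTCACTT, part of the interferon-stimulated response element. Counting both strands, 0.301% of the 32851 windows hold the first of these motifs and 1.36% hold the second. For H2-Aa (chr17:34287824-34288073, minus strand) and H2-Eb1 (chr17:34305617-34305866, plus strand), capitals mark GATTGG, the core of the Y box of class II promoters, on either strand (CCAATC on the other), which 14.6% of windows hold. The marked motifs do not overlap. A match is a description of these letters and not a measured site.
H2-K1: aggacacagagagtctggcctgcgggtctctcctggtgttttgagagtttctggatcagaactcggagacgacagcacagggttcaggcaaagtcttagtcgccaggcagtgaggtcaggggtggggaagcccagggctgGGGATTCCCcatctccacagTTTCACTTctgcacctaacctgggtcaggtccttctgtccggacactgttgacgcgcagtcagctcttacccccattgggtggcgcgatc
H2-D1: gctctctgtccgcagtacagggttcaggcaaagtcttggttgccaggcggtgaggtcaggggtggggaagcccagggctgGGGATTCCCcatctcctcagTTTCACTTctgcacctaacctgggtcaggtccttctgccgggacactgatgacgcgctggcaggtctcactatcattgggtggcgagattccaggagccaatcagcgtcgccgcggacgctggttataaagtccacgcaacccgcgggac
H2-Aa: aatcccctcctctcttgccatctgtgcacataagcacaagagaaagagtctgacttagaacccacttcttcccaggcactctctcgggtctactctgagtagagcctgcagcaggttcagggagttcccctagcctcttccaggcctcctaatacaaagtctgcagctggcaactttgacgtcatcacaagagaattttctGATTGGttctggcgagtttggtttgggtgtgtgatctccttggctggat
H2-Eb1: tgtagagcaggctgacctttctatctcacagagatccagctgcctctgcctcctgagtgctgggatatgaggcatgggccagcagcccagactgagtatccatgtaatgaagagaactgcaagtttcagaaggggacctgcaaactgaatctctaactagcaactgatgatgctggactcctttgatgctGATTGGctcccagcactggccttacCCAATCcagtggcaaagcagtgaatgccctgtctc

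Some genes of dendritic cells were lower in BXH14. Cd209a, a lectin of dendritic cells, had signals of 146 and 183 in BXH14, against 207 to 624 with a median of 354 in the other RI strains, 292 and 258 in C3 and 407 and 331 in B6. Both BXH14 values were below all others (difference -0.95, SE 0.16, limma adjusted p = 0.00310). Itgax, the CD11c integrin of dendritic cells and alveolar macrophages, had 509 and 596 in BXH14, against 661 to 1202 with a median of 853 in the other RI strains, 1126 and 990 in C3 and 650 and 730 in B6 (difference -0.65, SE 0.13, limma adjusted p = 0.0158). It was at the B6 level, below every other RI array. Mgl2, a galactose-binding lectin (-0.74, SE 0.17, limma adjusted p = 0.0334), Fscn1, an actin-bundling protein of mature dendritic cells (-0.53, SE 0.12, limma adjusted p = 0.0236), and Fcgr2b, the inhibitory IgG receptor (-0.62, SE 0.13, limma adjusted p = 0.0159), also fell. Further Fscn1 probe sets gave -0.04, -0.35 and -0.14, the last of them dim. The first of these read 327 and 340 in BXH14, inside the 255 to 559 of the other RI strains. Further Fcgr2b probe sets gave -0.92, -0.59 and -0.47. Of 8 tested genes of a dendritic cell list, written after values of these data had been seen, 4 fell (Cd209a, Itgax, Fscn1 and Mgl2) and 0 rose, beside 0.713% of all tested genes that fell, with a median of -0.35. The mean of that list was 8.04 and 8.30 in BXH14 and 8.25 to 8.87 in the other RI strains. Its members not called included the transcription factor Zbtb46 (0.12), and no defining marker was at 0. The part of cell number in the class II differences was not tested. Without BXH14 replicate 1, limma's adjusted p was 0.21 for Cd209a, 0.517 for Itgax, 0.847 for Mgl2, 0.847 for Fscn1 and 0.647 for Fcgr2b, and without replicate 2 it was 0.0572 (limma) for Itgax.

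The other immune lists held few called genes. Of 10 tested interferon-induced GTPases 1 fell, Ifi47, with signals of 419 and 596 in BXH14, against 432 to 2176 with a median of 907 in the other RI strains (difference -0.83, SE 0.19, limma adjusted p = 0.0402). All 10 were below 0, with a median of -0.53, and Igtp (-0.96, SE 0.26, limma adjusted p = 0.0781) and Iigp1 (-0.66, SE 0.19, limma adjusted p = 0.113) were not called. The Ifi47 call was lost without either BXH14 array (limma adjusted p = 0.808 without replicate 1 and 0.0588 without replicate 2). Gbp2b had 87.2 and 98.3 in BXH14, against 59.5 to 1711 in the other RI strains (-0.89, SE 0.24, limma adjusted p = 0.0813), and stood at the B6 level. Of 10 alveolar macrophage genes 2 fell, Itgax and the keratin Krt79 (-0.45, SE 0.10, limma adjusted p = 0.0322), while the receptors Marco (0.48) and Mrc1 (-0.15) were not called. Krt79 stood at the B6 level, with a mean of 506 in BXH14, 495 in B6 and 1640 in C3. For this gene 5 other RI strain means were within 0.5 of BXH14 (log2), and those of BXH4 (450) and BXH9 (487) were lower. Krt79 was lost without either BXH14 array, with limma adjusted p of 0.218 and 0.194. None of 6 natural killer cell genes (median -0.55), 9 B cell genes (-0.13), 4 T cell genes (-0.14), 12 monocyte genes (-0.18) or 13 type I interferon genes (-0.09) was called by limma, with 4, 0, 0, 3 and 3 of them lower at an unadjusted p below 0.05. Oas2, an interferon-induced gene that is not among those 13, was called lower. It had 152 and 273 in BXH14, against 131.5 to 750 with a median of 364.5 in the other RI strains (-0.75, SE 0.17, limma adjusted p = 0.0336). Tlr4, the lipopolysaccharide receptor, had a difference of -0.12 (SE 0.13, limma adjusted p = 0.770). Irf8, a transcription factor of the dendritic and monocyte lineages, had -0.39 (SE 0.15, limma adjusted p = 0.248), which turned to 0.03 without BXH14 replicate 1.

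**Figure D4:**
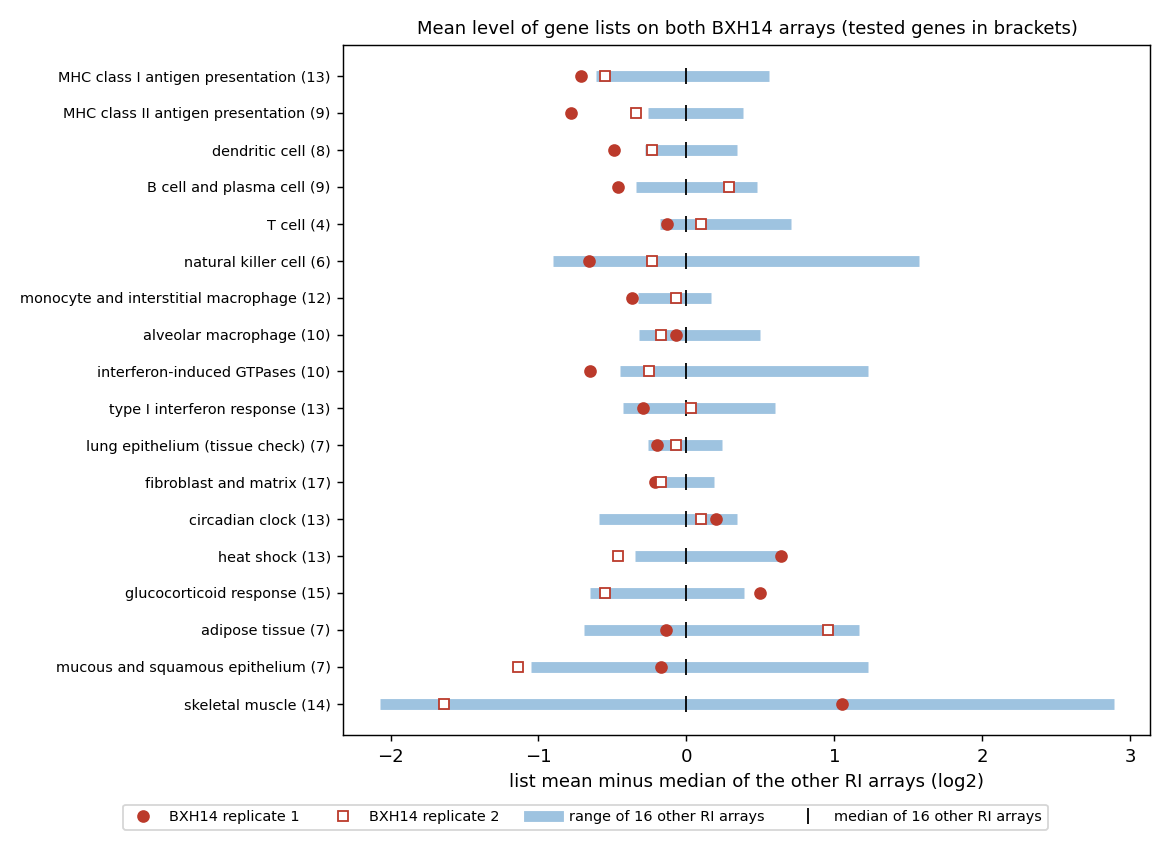
Mean log2 level of 18 gene lists on BXH14 replicate 1 (filled circles) and replicate 2 (open squares), each minus the median of the 16 other RI arrays, whose range is the blue bar. Both BXH14 arrays are left of the bar for MHC class II genes, and the arrays lie far apart for skeletal muscle, heat shock, glucocorticoid and adipose genes.

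The BXH14 arrays differed from each other in several lists. Replicate 1 exceeded replicate 2 for skeletal muscle genes (mean level 9.77 and 7.08 on the log2 scale), heat shock genes (11.51 and 10.41) and glucocorticoid-responsive genes (10.89 and 9.84), and was below it for adipose genes (9.22 and 10.32) and B cell genes (8.85 and 9.60). Of the skeletal muscle genes, 0 of 14 were called by limma, with 1 at an unadjusted p below 0.05. A fit that took the mean of the skeletal muscle genes as a covariate called 121 genes. The MHC class II mean was 9.67 on replicate 1 and 10.11 on replicate 2, against 10.19 to 10.83 in the other RI strains. Between the 2 BXH14 arrays, the lower class II mean was on the array with the lower B cell mean. The B cell mean of the other RI arrays was 8.97 to 9.79 with a median of 9.31, so that of BXH14 replicate 2 was above their median. B6 replicate 2 had a B cell mean of 8.73 and a class II mean of 10.17. The part of these list differences in the class II result was not tested.

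Among genes at the C3 level that were higher in BXH14, Tmem87a, a Golgi membrane protein, had the largest difference. It had signals of 969 and 885 in BXH14, against 90.8 to 1025 with a median of 152 in the other RI strains, 932 and 870 in C3 and 124 and 116 in B6. BXH8 and BXH10 shared the high level, with means of 975 and 842, and the difference was 1.95 (SE 0.17, limma adjusted p = 2.54e-06). Hebp1, a heme-binding protein, had 625 and 463 in BXH14, against 28.2 to 692 with a median of 192 in the other RI strains, 620 and 499 in C3 and 121 and 168 in B6 (difference 1.42, SE 0.25, limma adjusted p = 0.00566). Nme7, of the nucleoside diphosphate kinase family, had 859 and 790 in BXH14, against 239 to 1478 with a median of 320 in the other RI strains, 1068 and 960 in C3 and 248 and 270 in B6 (difference 0.93, SE 0.13, limma adjusted p = 6.18e-04). For Hebp1, BXH6 and BXH8 were also high, and for Nme7, BXH6 and BXH9.

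Genes at the C3 level shared it with differing numbers of RI strains. Cap1, an actin regulator, had 2916 and 3099 in BXH14, against 200 to 3687 with a median of 3099 in the other RI strains. BXH8 (250) and BXH10 (318) were the 2 RI strains with means near the 352 and 286 of the B6 arrays, and the difference was 0.76 (SE 0.14, limma adjusted p = 0.00572). Baiap2l1, an adaptor between membranes and actin, had 3868 and 3592 in BXH14, beside 5 other RI strains with means of 3340 to 5374, and against BXH2, BXH7 and BXH8 with 616 to 680 (difference 0.90, SE 0.12, limma adjusted p = 3.80e-04). Glo1, glyoxalase 1, which detoxifies methylglyoxal and lies on chromosome 17, had 2172 and 2338 in BXH14, against 901 to 2881 with a median of 1096 in the other RI strains, 2741 and 2789 in C3 and 1079 and 1413 in B6 (difference 0.66, SE 0.11, limma adjusted p = 0.00194). The strains that shared its high level were BXH2, BXH6 and BXH7, as for the low level of H2-K1.

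Genes at the C3 level that were lower in BXH14 included Ifi209, an interferon-inducible nuclear protein, with 104 and 171 in BXH14, against 121 to 781 with a median of 464 in the other RI strains, 114 and 139 in C3 and 522 and 438 in B6 (difference -1.33, SE 0.19, limma adjusted p = 6.48e-04). Pttg1, securin, which holds sister chromatids together until anaphase, had 1232 and 1276 in BXH14, against 957 to 7396 with a median of 3291 in the other RI strains, 1062 and 2514 in C3 and 4957 and 4641 in B6 (difference -1.10, SE 0.21, limma adjusted p = 0.00841). Pttg1 was low in BXH2, BXH6, BXH8 and BXH19 too, with means between 1068 and 1624. Smim10l1 had -1.13 (SE 0.20, limma adjusted p = 0.00467), but its second probe set had 0.11. Without BXH14 replicate 1, limma's adjusted p was 0.258 for Hebp1, 0.0596 for Nme7, 0.105 for Cap1, 0.0521 for Glo1, 0.107 for Ifi209 and 0.218 for Pttg1. Without replicate 2 it was 0.0770 for Cap1, 0.0581 for Glo1, 0.0725 for Pttg1 and 0.155 (limma adjusted p) for Smim10l1.

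Among the 24 genes at the B6 level, Alad had the lowest p of those that fell. Alad is the second enzyme of heme synthesis. It had signals of 445 and 447 in BXH14, against 296 to 1677 with a median of 1401 in the other RI strains, 1370 and 1630 in C3 and 337 and 399 in B6. BXH10 (466) and BXH19 (352) were also low, and the difference was -1.15 (SE 0.12, limma adjusted p = 2.06e-05). Clba1, a clathrin-binding protein, had 152 and 207 in BXH14, against 189 to 588 with a median of 456 in the other RI strains, 478 and 472 in C3 and 232 and 172 in B6, with BXH8 (231) and BXH10 (209) also low (difference -1.10, SE 0.12, limma adjusted p = 4.27e-05).

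Of the B6-level genes that rose, Trim34a, of the tripartite motif family, had 844 and 1141 in BXH14, against 26.6 to 1109 with a median of 125 in the other RI strains, 126 and 134 in C3 and 996 and 793 in B6. BXH2, BXH7 and BXH19 shared the high level (means of 876 to 1084). The difference was 2.20 (SE 0.33, limma adjusted p = 8.47e-04), while its second, dim probe set had -1.36, and related Trim genes lie beside it, so its value is uncertain. Pdxdc1, a decarboxylase-domain protein, had 903 and 848 in BXH14, against 124 to 1022 with a median of 441 in the other RI strains, 96.9 and 146 in C3 and 849 and 1021 in B6 (difference 1.18, SE 0.13, limma adjusted p = 2.64e-05). Another of its probe sets had the opposite sign (-1.63) and 2 had the same (0.87 and 0.44). Exosc9, a subunit of the RNA exosome (0.93, SE 0.14, limma adjusted p = 8.47e-04), Wdr82, a subunit of histone methyltransferase complexes (0.80, SE 0.10, limma adjusted p = 2.23e-04), and the zinc finger gene Zfp386 (0.86, SE 0.12, limma adjusted p = 5.58e-04) were higher as well. Both Zfp386 values of BXH14 (553 and 532) were above the 206 to 490 of the other RI strains. Exosc9 was lost without BXH14 replicate 1 (limma adjusted p = 0.107).

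Rpgrip1, which encodes a protein of the photoreceptor cilium, had a mean between those of the progenitors and nearer that of C3. It had 143 and 124 in BXH14, against 72.8 to 2653 with a median of 784 in the other RI strains, 42.2 and 83.5 in C3 and 1547 and 1392 in B6. BXH2, BXH4, BXH8 and BXH19 had like means of 98.4 to 136, and the difference was -1.69 (SE 0.24, limma adjusted p = 6.18e-04). The difference to B6 was -3.32 (SE 0.32, limma adjusted p = 3.9e-06). That to C3 was 0.97 (SE 0.32, limma adjusted p = 0.149) and did not pass, so a level apart from C3 was not shown.

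BXH14 was also set against each progenitor. It differed from C3 in 178 genes (2.15%), of which 91 (1.1% of all tested genes) were higher and 87 (1.05%) lower in BXH14. It differed from B6 in 143 genes (1.73%), of which 71 (0.857%) were higher and 72 (0.87%) lower. Without BXH14 replicate 1 these counts were 47 and 62. Both tests passed with the same sign for 32 genes (0.386%), of which 12 were also called against the other RI strains. Among the other 20 were circadian clock genes. Dbp, a clock-controlled transcription factor, had signals of 1686 and 1829 in BXH14 and a median of 1330 in the other RI strains, with a difference of 2.17 to C3 (limma adjusted p = 1.39e-05), of 3.27 to B6 (limma adjusted p = 1.81e-08) and of 0.47 to the other RI strains (limma adjusted p = 0.208). Of 13 tested clock genes, 6 rose and 1 fell against C3, 8 rose and 1 fell against B6, and 0 were called against the other RI strains, with 4 higher at an unadjusted p below 0.05 (limma). The comparisons with C3, B6 and the other RI strains share the BXH14 arrays.

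C3 differed from B6 in 138 genes (1.67%), and 75 of these by at least 1 on the log2 scale. For these 75 genes the position of BXH14 was computed as (BXH14 minus B6)/(C3 minus B6), which is 1 at the C3 level and 0 at the B6 level. BXH14 did not choose these genes. It was nearer C3 for 35, nearer B6 for 36 and outside both for 4 (Rab6b, Gprc5b, Dbp and Nr1d2), with a median position of 0.55. Positions within 0.25 of either level were found for 50 genes, and 11 lay between 0.3 and 0.7. In all, 38 genes (50.7%) were above 0.5, where the other RI strains had 22 to 46 genes. For the 4 genes outside in BXH14, positions in the other RI strains were 1.52 to 3.28 for Dbp and 1.16 to 1.63 for Nr1d2. They were -0.14 to 1.61 for Gprc5b and -0.27 to 1.35 for Rab6b. Dbp was thus outside in every RI strain, and being outside was not particular to BXH14 for Dbp, Nr1d2 and Gprc5b. On chromosome 11 all 5 genes were nearer C3, and on chromosome 15 all 5 were nearer B6. On chromosome 17, 8 of 10 were nearer C3, among them Glo1, H2-K1 and H2-D1.

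**Figure D5:**
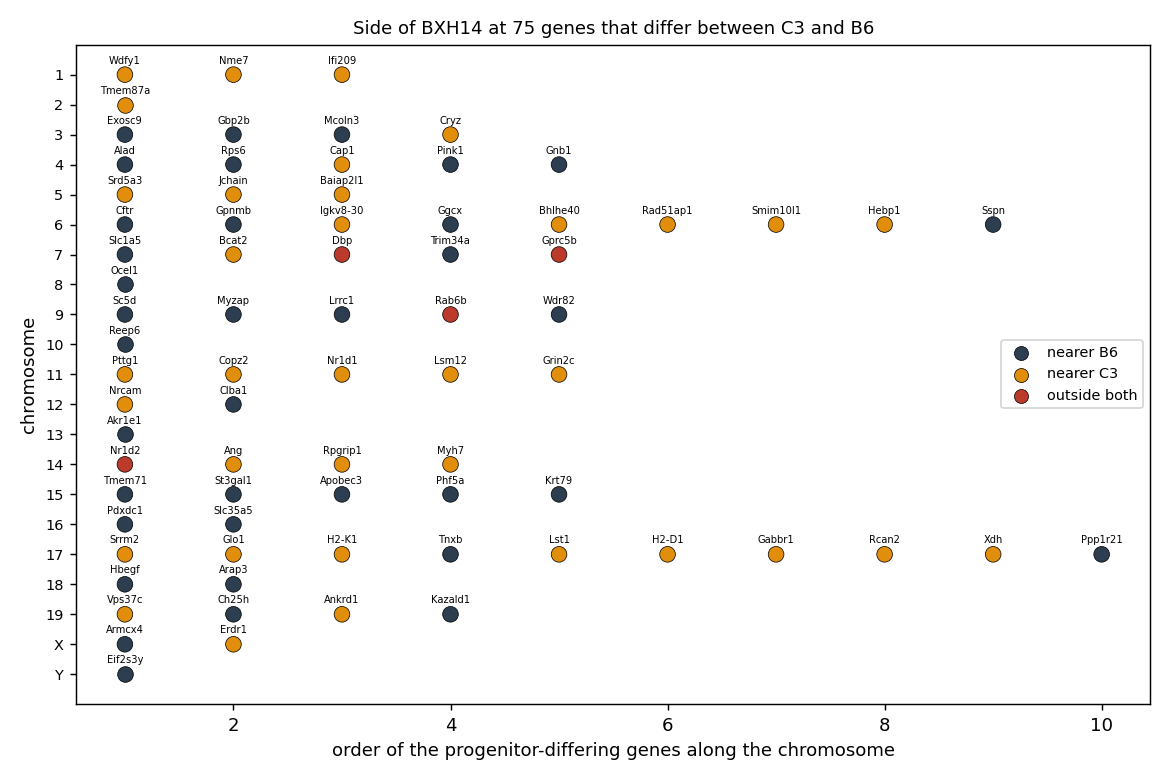
The 75 genes that differ between C3 and B6 by at least 1 (log2), in order along each chromosome and coloured by the side on which BXH14 lies. All 5 genes of chromosome 11 are nearer C3 and all 5 of chromosome 15 are nearer B6, while 4 genes on chromosomes 7, 9 and 14 are outside both.

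The remaining lists held few called genes. Of 17 tested fibroblast and matrix genes 1 fell (Eln), with a median of -0.17; Col1a1 had -0.63 (SE 0.20, limma adjusted p = 0.153) and Mfap5 -0.61 (SE 0.15, limma adjusted p = 0.0539). None of 14 surfactant and alveolar type 2 genes (median -0.16), 11 club cell genes (-0.14), 15 endothelial genes (-0.08) or 5 mesothelial genes (0.42) was called by limma. At an unadjusted p below 0.05, 1 alveolar type 2 gene was higher and 1 lower, 1 endothelial gene was lower and 3 mesothelial genes were higher. Likewise 0 of 15 antioxidant-response (NRF2) genes, 20 oxidative phosphorylation genes and 18 proteasome genes were called by limma, with 3, 0 and 2 of them at an unadjusted p below 0.05.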

How the data were processed

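Lung RNA of 24 samples was hybridised to Affymetrix Mouse 430A arrays. The authors deposited one linear intensity (signal) for each of 22690 probe sets and array; the sources used here do not give the software or the scaling. Trimmed means were 500.11 to 500.13 on every array and medians spanned 0.17 on the log2 scale, under the limit of 0.3, so no further normalization was applied. Whether background was subtracted is not given, and a log2(signal + 16) difference understates the change of dim genes. Precision is limited by the number of arrays.

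Gene names came from the platform annotation (20380 with 1 symbol, 691 with several, 1555 with none, 64 controls), and 20351 were matched to RefSeq (GRCm38.p6), used for gene order and promoter sequences; the array files name no build. The brightest probe set of a gene was tested if its mean was in the top 60 percent, a signal of at least 168.8. limma 3.58.1 in R 4.3.3 (lmFit, eBayes with trend) was fitted on all arrays with 12 strain groups and 12 residual degrees of freedom. The contrast was BXH14 minus the mean of the other 8 strain means. Outside meant beyond both progenitor means by more than 0.5 with no overlap of arrays.

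Named were the 15 largest and 15 lowest differences with no overlap, up to 10 genes outside in each direction, up to 6 at each progenitor level shared with no other strain (which gave none), up to 4 members of lowest p and each called member of a described list, the called genes of the 4 longest runs and some genes chosen by name; not all are described, and other genes named were chosen after their values were seen. The members and lists were chosen with earlier results of these data known. The method was tested on simulated data. Replicate numbers did not pair samples: over 66 pairs of strains the deviations of same-numbered arrays correlated between -0.30 and 0.34. Alternatives were other normalizations, offsets, filters, probe set rules, tolerances and left-out arrays.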

Additional observations from a re-analysis of the deposited data

How the results depend on the processing

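The count of 102 genes called against the other RI strains moved by over 1.5 times in 2 of 42 alternatives, to 157 (64 higher, 93 lower) when every probe set was tested and to 20 (8 higher, 12 lower) without BXH14 replicate 1. Leaving out single arrays gave 20 to 126 called genes, 62 to 167 against B6, 47 to 194 against C3, 8 to 62 genes outside both progenitors, 6 to 31 at the B6 level, 5 to 37 at the C3 level, and 38.2% to 59.6% of positions nearer C3. The lowest count came without BXH14 replicate 1 in each case but the positions, where it came without C3 replicate 1. In these percentages, nearer C3 means any position above 0.5, with genes outside both above 1.5 included, as in the 50.7% of the main fit. With every probe set, 39 genes were at the B6 level and 58 at the C3 level. Fits on only the arrays compared called 74 genes against B6 and 59 against C3, which have fewer residual degrees of freedom. With the top 40 percent of probe sets 20 genes were outside, with a tolerance of 0.25 there were 61 outside, 13 at the B6 level and 18 at the C3 level, with a tolerance of 1 there were 4 outside, and by the tests against both progenitors 12. When C3 and B6 had to differ by 1.5 or more, 65.5% of genes had a position above 0.5. With the replicate number as a block, 110 genes were called against the other RI strains, 142 against B6 and 183 against C3; 22 of 66 pairs of strains had correlated deviations above 0.1, so the numbers were not taken to pair samples. Of the 102 genes, 0 changed sign under an alternative; the difference of Irf8, which was not called, was 0.0278 without BXH14 replicate 1 and -0.81 without replicate 2. The small positive difference of Scnn1a was -0.0041 after quantile normalization, -0.0923 to 0.11 without single arrays (the lowest without BXH14 replicate 1) and -0.0339, -0.0085, -0.0223 and -0.0396 without both arrays of BXH7, BXH8, BXH9 and BXH19. The cause of these changes was not tested beyond the number of genes and samples in each fit. With 2 arrays for each strain, differences that depend on 1 array cannot be told from those of the strain.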

Other observations

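Over tested genes the strain mean of BXH14 correlated most with that of BXH7 (r = 0.971) and BXH6 (0.970) and least with that of BXH4 (0.948), a description across genes that share their arrays. Malat1, a nuclear long noncoding RNA, was among the 20 genes that passed against both progenitors but were not called against the other RI strains, with differences of 2.02 to C3, 1.64 to B6 and 1.04 to the other RI strains (limma adjusted p = 0.0659).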
